A study of Mus musculus with 6 samples.

Results

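The genes described here are *Trp53*, which encodes the transcription factor p53, and 8 genes that p53 is known to regulate: *Mdm2*, *Ccng1*, *Bax*, *Pmaip1*, *Bbc3*, *Eda2r*, *Trp53inp1* and *Zmat3*. They are 9 of the 55401 genes of the deposited matrix, taken by symbol, and each symbol stood on a single row. They were listed by name as p53 and its apoptosis targets, and several were chosen by their difference in counts between *Phf2* KO and control cells in these same libraries, so their differences are given as a description, with no p-value, and counts of them past a threshold are no test. RNA was sequenced at 2 d post differentiation from C2C12, a line of mouse myoblasts that form myotubes once serum is lowered (here 2% horse serum), in 3 control libraries and 3 *Phf2* KO libraries. All cells had passed through transfection with a plasmid for Cas9, ZsGreen and a guide RNA, sorting for ZsGreen, expansion and freezing. The *Phf2* KO cells had received 4 pooled plasmids with guides to *Phf2*, which encodes a demethylase of the repressive histone mark H3K9me2. The control cells, called wild type in the sample labels and mock cells in the study, had received a guide that matches no mouse sequence. Each group was a pool of sorted cells without single-cell cloning, and the replicates were wells of a single experiment, so p-values measure the spread between wells only. A Cas9 cut, a known trigger of p53, was intended in the *Phf2* KO pool alone, so that the effects of cutting, of the loss of PHF2 and of differences between pools cannot be told apart.

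Control libraries held 56821143 to 58507833 and *Phf2* KO libraries 52526109 to 67502788 estimated counts, and those of the 9 genes ran from 508 to 15477 per library. *Phf2* itself had 102.4, 95.5 and 104.6 CPM (counts scaled to library size by TMM) in the control wells, against 41.1, 37.6 and 38.6 CPM in the *Phf2* KO wells, with the replicates in numerical order here and throughout. The targeted gene thus followed the labels, with a log2 fold change of -1.37 and an adjusted p of 8.32e-09. Unless another test is named, adjusted p values come from the quasi-likelihood test of edgeR, with the Benjamini-Hochberg method applied over the 17310 genes tested. All 12 myotube markers examined, among them *Myog* and *Ckm*, were detected. Of the 6 blood and endothelial markers, 5 were below 1 TPM (a level scaled by transcript length) in every library, with *Adgre1* and *Hbb-bs* at 0.

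p53 is kept low in unstressed cells by MDM2, a ubiquitin ligase that marks it for degradation, and it is stabilized after DNA damage and other stress, mostly at the level of the protein. It then binds DNA at sites made of a pair of decamers and activates genes that halt the cell cycle, repair DNA or kill the cell. *Mdm2* is itself a p53 target, which closes a negative feedback loop. In muscle, p53 is known to act with the myogenic factors, and the cell cycle inhibitor p21, encoded by the p53 target *Cdkn1a*, also rises when myoblasts leave the cycle to differentiate.

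The sequence before the transcription start is shown for 4 of the 9 genes because each holds an exact match of the p53 decamer consensus, and *Cdkn1a* is shown as the standard of comparison. Capitals mark exact decamers and, in *Ccng1* and *Bax*, the pair of decamers of the best full site. All sequences are from RefSeq (build GRCm38.p6), written 5′ to 3′ on the strand of the gene.
*Ccng1*, chr11:40755387-40755536, minus strand: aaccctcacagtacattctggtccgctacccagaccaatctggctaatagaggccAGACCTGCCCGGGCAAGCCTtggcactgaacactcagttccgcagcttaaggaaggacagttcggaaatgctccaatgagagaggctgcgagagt
*Bax*, chr7:45466999-45467148, minus strand: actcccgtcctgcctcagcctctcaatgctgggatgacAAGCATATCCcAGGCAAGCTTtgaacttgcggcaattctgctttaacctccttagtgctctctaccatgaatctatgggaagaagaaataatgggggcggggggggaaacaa
*Mdm2*, chr10:117710859-117711008, minus strand: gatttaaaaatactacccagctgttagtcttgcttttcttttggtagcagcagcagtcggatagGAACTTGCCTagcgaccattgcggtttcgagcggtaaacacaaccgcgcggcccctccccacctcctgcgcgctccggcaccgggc
*Trp53*, chr11:69580259-69580358, plus strand: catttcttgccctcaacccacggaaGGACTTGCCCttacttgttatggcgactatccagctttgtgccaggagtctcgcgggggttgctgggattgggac
*Cdkn1a*, chr17:29090879-29090968, plus strand: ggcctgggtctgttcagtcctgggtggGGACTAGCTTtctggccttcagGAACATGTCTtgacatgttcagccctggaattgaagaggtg

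Windows from 250 bases before to 50 bases after a start were searched for the p53 decamer consensus, which reads the same on both strands, and for the full site of a pair of decamers that overlap nowhere and lie at most 13 bases apart. Of the 9 genes, 6 had a window in the RefSeq table; *Pmaip1*, *Trp53inp1* and *Zmat3* had none. An exact decamer stood in the windows of 4 of these 6 genes, against 9.55% of the 27025 genes with a window. Counted from the start, it began at position -185 in *Ccng1*, -201 in *Bax*, -186 in *Mdm2* and -75 in *Trp53*. The best full sites of *Ccng1* and *Bax* had 1 mismatch each, with decamers 0 and 1 bases apart, and 1.09% of the 32851 windows held a site with at most 1 mismatch. The first window of *Cdkn1a* held a full site without mismatch, which 0.0731% of the windows did. The decamers of this site lay 12 bases apart. Only the pair with the fewest mismatches was kept per window, so closer pairs with more mismatches are not marked. The best full site of the other *Cdkn1a* window had 5 mismatches, which 99.5% of all windows matched or bettered. The best full site of *Trp53* had 3 mismatches, which 45.1% of all windows matched or bettered, and those of *Mdm2* and *Eda2r* had 4, which 89.3% matched or bettered. Those of the 3 *Bbc3* windows had 3, 3 and 6. These matches describe letters in a short window. Introns, where several known p53 sites lie, were not analysed here.

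**Figure D1:**
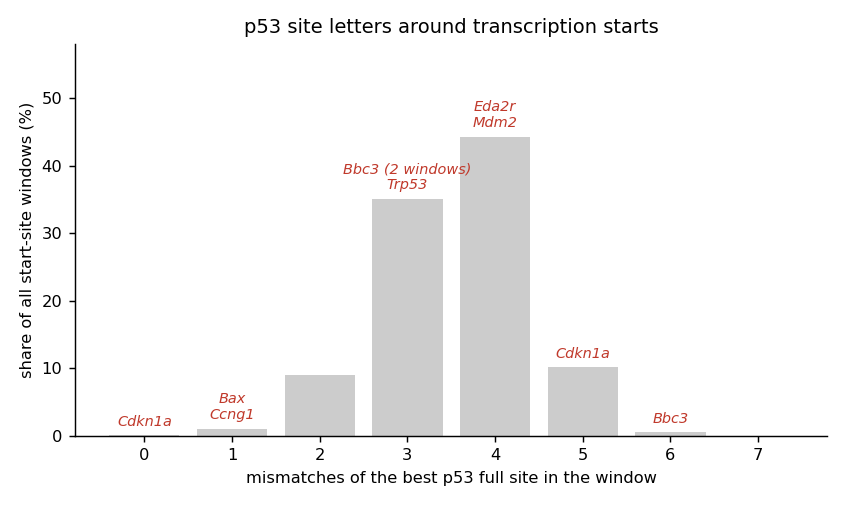
Share of all 32851 start-site windows (y axis, %) by the number of mismatches of the best p53 full site in the window (x axis), with the windows of the p53 targets and *Cdkn1a* named above their bar. *Bax* and *Ccng1* stand at 1 mismatch and the first *Cdkn1a* window at 0, while the most frequent number is 4.

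*Trp53* (ENSMUSG00000059552, chromosome 11, 69580359 to 69591873 in mm10) was nearly level between the groups. It was at 101.6, 105.8 and 106.7 CPM in control wells, against 105.7, 104.4 and 99.8 CPM in *Phf2* KO wells. The groups overlapped, with means of 104.7 ± 2.72 CPM (SD, n = 3) and 103.3 ± 3.12 CPM (SD, n = 3) and a log2 fold change of -0.02 (standard error 0.045). Its processed copy *Trp53-ps* had between 41 and 139 estimated counts per library, against 5484 to 6753 for *Trp53*. These values are of RNA and say nothing of the amount or activity of the protein.

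*Mdm2* and *Ccng1* act in negative feedback on p53, and both had a lower mean in *Phf2* KO cells, while the groups of *Ppm1d*, a phosphatase gene of the same feedback, overlapped. *Mdm2* (ENSMUSG00000020184, chromosome 10, 117688875 to 117710758) was at 94.6, 109.9 and 98.3 CPM in control wells, against 71.6, 84.9 and 92.5 CPM in *Phf2* KO wells. All *Phf2* KO libraries were below the lowest control library, but *Phf2* KO replicate 3 came close to control replicate 1, and the log2 fold change was -0.28 (standard error 0.098). *Ccng1* (ENSMUSG00000020326, chromosome 11, 40748552 to 40755311) encodes cyclin G1, which recruits a phosphatase to MDM2. It was at 245, 263 and 258 CPM in control wells, against 183, 223 and 229 CPM in *Phf2* KO wells, again without overlap. *Phf2* KO replicate 1 was the lowest library for both genes, with group means of 255 ± 9.31 and 212 ± 24.7 CPM (SD, n = 3) for *Ccng1* and a log2 fold change of -0.27 (standard error 0.077).

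Of the 3 members of the BCL2 family, 2 were lower in every *Phf2* KO library and the other was not. BAX permeabilizes the outer mitochondrial membrane, while NOXA, encoded by *Pmaip1*, and PUMA, encoded by *Bbc3*, are BH3-only proteins that disarm the survival members of the family. *Bax* (ENSMUSG00000003873, chromosome 7, 45461697 to 45466898) was at 73.9, 78.7 and 80.3 CPM in control wells, against 63.8, 70.9 and 63.8 CPM in *Phf2* KO wells. The groups did not overlap, and the log2 fold change was -0.23 (standard error 0.056). The exons of *Bax* share 192 of 1576 bases with *Gm45808*, which had at most 1 estimated count per library, and no exon of the other 8 genes overlapped another annotated gene.

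*Pmaip1* (ENSMUSG00000024521) had the most negative log2 fold change of the 9 genes. It was at 15.8, 17.7 and 16.9 CPM in control wells, against 9.74, 12.6 and 13.7 CPM in *Phf2* KO wells, with means of 16.8 ± 0.956 and 12.04 ± 2.06 CPM (SD, n = 3). The *Phf2* KO mean was 71.5% of the control mean, no library of one group reached the other, and the log2 fold change was -0.48 (standard error 0.12). *Bbc3* (ENSMUSG00000002083, chromosome 7, 16308393 to 16318205) overlapped between the groups. It was at 8.91, 12.9 and 11.1 CPM in control wells, against 11.8, 11.5 and 12.5 CPM in *Phf2* KO wells, so that the *Phf2* KO libraries lay within the control range, and its log2 fold change was 0.12 (standard error 0.13).

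*Eda2r* (ENSMUSG00000034457, chromosome X, 97333840 to 97377216) encodes a receptor of the TNF receptor family that binds ectodysplasin A2. It was at 94.1, 102.9 and 95.5 CPM in control wells, against 75.9, 68.5 and 76.3 CPM in *Phf2* KO wells. The gap between the groups was wide against the spread within them, with means of 97.5 ± 4.69 and 73.6 ± 4.40 CPM (SD, n = 3) and a log2 fold change of -0.41 (standard error 0.055). The gene of its ligand, *Eda*, had an estimated count of 0 in all 6 libraries. A count of 0 allows up to 3 read pairs, or 0.178 to 0.228 CPM depending on the library.

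*Trp53inp1* (ENSMUSG00000028211, chromosome 4, 11156431 to 11174379), which encodes a protein that promotes p53 phosphorylation and autophagy, had the most positive log2 fold change of the 9 genes. It was at 46.3, 52.9 and 57.8 CPM in control wells, against 60.6, 73.0 and 71.0 CPM in *Phf2* KO wells. Every *Phf2* KO library lay above every control library, by a narrow margin between *Phf2* KO replicate 1 and control replicate 3, and the log2 fold change was 0.38 (standard error 0.091). *Zmat3* (ENSMUSG00000027663, chromosome 3, 32334792 to 32366014) encodes a zinc finger protein that binds RNA. It was at 61.8, 71.2 and 69.5 CPM in control wells, against 53.5, 59.3 and 64.0 CPM in *Phf2* KO wells. *Phf2* KO replicate 3 lay above control replicate 1, so the groups overlapped, and the log2 fold change was -0.20 (standard error 0.072).

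**Figure D2:**
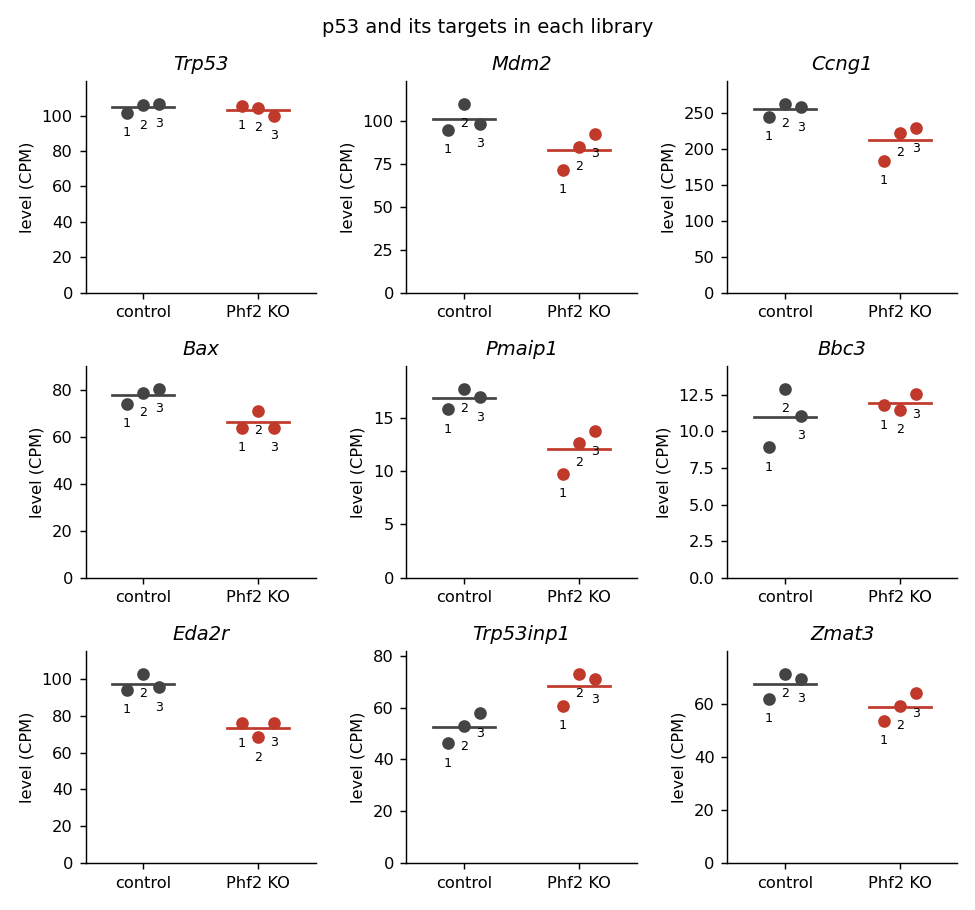
Level of each of the 9 genes (y axis, TMM-normalized CPM, from 0) in the 3 control and the 3 *Phf2* KO libraries; points are libraries with their replicate number and lines are group means. *Mdm2*, *Ccng1*, *Bax*, *Pmaip1* and *Eda2r* lie lower and *Trp53inp1* higher in every *Phf2* KO library than in any control library, and *Trp53*, *Bbc3* and *Zmat3* overlap.

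In all, 7 of the 9 genes had a negative and 2 a positive log2 fold change, with a median of -0.23 against -0.00096 for all 17310 genes tested. The groups did not overlap for 6 of the 9 genes (5 lower and 1 higher), and those of 25.1% of all genes tested did not (12.2% lower and 12.9% higher). As a description, 4 of the 9 genes (*Eda2r*, *Bax* and *Pmaip1*, lower, and *Trp53inp1*, higher) were past an adjusted p of 0.05 in edgeR's quasi-likelihood fit, against 6.48% of all genes (3.26% lower and 3.22% higher). Since several genes were listed for these very differences, the counts are no test of them and nothing is read from them. The number ran from 1 (without control replicate 2) to 3 (without control replicate 1) in fits without 1 library, being 2 without each other library. A block for the replicate number gave 7, and the share of all genes was 7.6%.

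**Figure D3:**
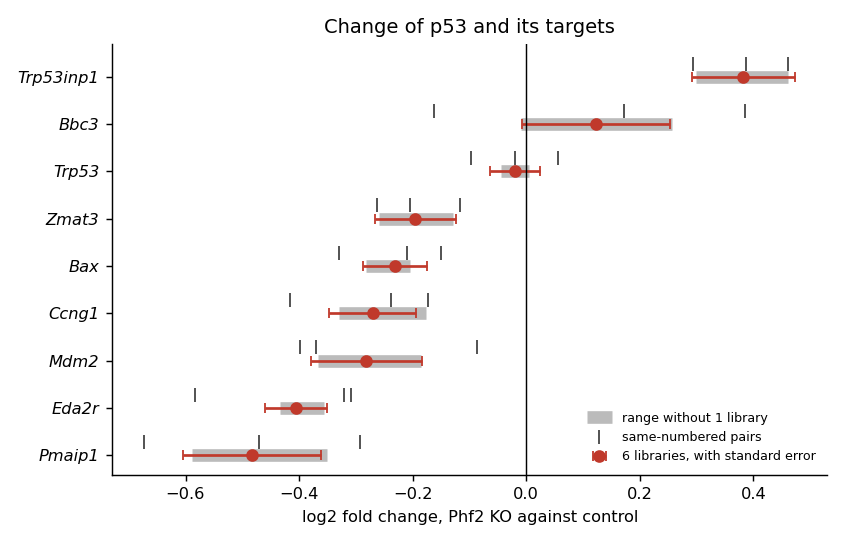
Log2 fold change of *Phf2* KO against control (x axis) for each of the 9 genes; red points with bars are the fit of 6 libraries with its standard error, grey bands the range of the 6 fits that leave out 1 library, and short lines the differences between libraries with the same replicate number. The bands of *Trp53* and *Bbc3* reach both sides of 0 and the other 7 do not.

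Libraries with the same replicate number were also compared as pairs, on log2(CPM + 0.5). *Mdm2*, *Ccng1*, *Bax*, *Pmaip1*, *Eda2r* and *Zmat3* were lower in the *Phf2* KO library of all 3 pairs, and *Trp53inp1* was higher in all 3. Apart from *Zmat3*, the groups of these genes did not overlap, so the sign of every pair was fixed beforehand and adds nothing. The size varied between pairs. *Mdm2* differed by -0.40, -0.37 and -0.09 in pairs 1, 2 and 3, and *Eda2r* by -0.31, -0.58 and -0.32. *Bbc3* changed sign between pairs, with differences of 0.39, -0.16 and 0.17.

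Within a group, the genes tended to be high or low in the same wells. This is not the difference between groups by which several genes were chosen, although the same wells enter that difference. In control replicate 1, all 9 genes lay below their control mean, and in control replicate 2 all 9 lay above it, while 49.4% of all genes tested lay below in the former and 50.5% above in the latter. The median deviation of the 9 genes was -0.08 in control replicate 1 and 0.07 in control replicate 2 on the log2 scale. In *Phf2* KO replicate 1, 7 of 9 lay below the *Phf2* KO mean, as did 50.6% of all genes tested. The exceptions were *Trp53* and *Eda2r*, and the median deviation of the 9 genes was -0.13. With 3 libraries a group, the deviations within a group sum to 0, so they are not independent, and no test was made.

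Levels of different genes were compared as TPM, which accounts for transcript length. The order in the control libraries ran from *Bax* at 182 ± 8.94 TPM (SD, n = 3) over *Ccng1* at 157 ± 5.73, *Trp53* at 125 ± 3.38, *Mdm2* at 75.1 ± 4.25, *Eda2r* at 48.2 ± 1.57 and *Trp53inp1* at 19.8 ± 1.73 TPM. *Pmaip1* at 13.4 ± 0.684, *Zmat3* at 13.3 ± 0.938 and *Bbc3* at 12.7 ± 1.46 TPM came last and overlapped one another, and no other neighbours in this order did. *Bax* was above 95.4% and *Bbc3* above 51.5% of the genes tested. Counted per kilobase of merged exons instead, the control level of *Ccng1* was 229.6 and that of *Bax* 155.7, so the order of these genes depends on the transcripts taken into account. On either scale *Bax* lay above the genes of the BH3-only proteins.

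**Figure D4:**
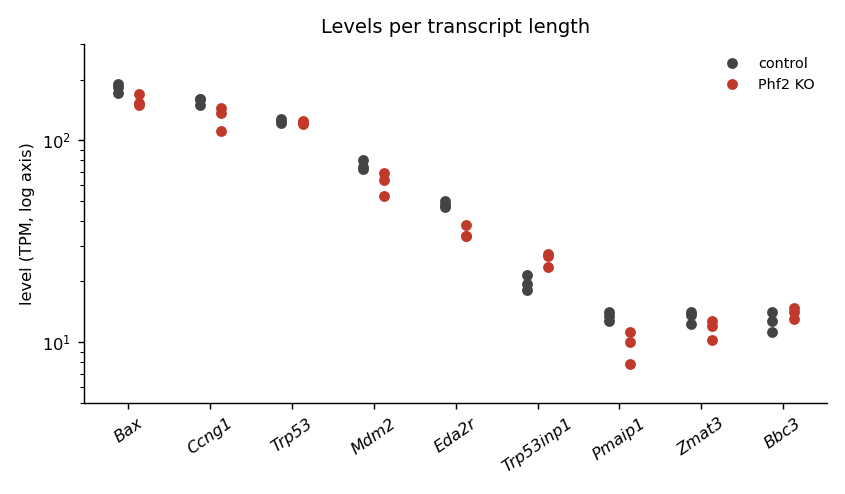
Level of the 9 genes per transcript length (y axis, TPM, log axis) in the control and *Phf2* KO libraries, 1 point per library, in the order of the control means. The genes run from *Bax* (182 TPM in control) to *Bbc3* (12.7 TPM), with *Pmaip1*, *Zmat3* and *Bbc3* at about the same control level.

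Ratios within a library, which do not depend on library scaling, set the members against their partners. The TPM of *Mdm2* per TPM of *Trp53* was 0.592, 0.642 and 0.576 in control wells, against 0.441, 0.512 and 0.563 in *Phf2* KO wells. *Pmaip1* and *Bbc3* were about equal in control cells, with ratios of 1.13, 0.992 and 1.06, and *Pmaip1* was the lower in *Phf2* KO cells, with 0.594, 0.706 and 0.757. The ratio of *Bax* to *Bcl2*, the gene of a survival factor that BAX opposes, was 35.3, 40.8 and 39.6 in control and 31.2, 31.4 and 28.1 in *Phf2* KO cells. None of the 3 ratios overlapped between the groups. *Mdm2*, *Pmaip1* and *Bax* did not overlap on their own either, like 25.1% of all genes tested, so the ratios are no separate result.

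Other p53 targets were examined through a list of 60 genes, 58 of them tested after low counts were filtered out, which removed *Rprm* and *Trp73*. They went both ways: 31 had a positive and 27 a negative log2 fold change, with a median of 0.006, and 5 rose and 2 fell with an adjusted p under 0.05 in the quasi-likelihood test (12.1%, against 6.48% of all genes). *Cdkn1a*, the cell cycle inhibitor p21, fell most clearly. It was at 1027, 1069.8 and 975 CPM in control wells, against 682, 689 and 663 CPM in *Phf2* KO wells, for a log2 fold change of -0.60 (adjusted p = 3.45e-06) and no overlap between the groups. *Cd82*, which encodes a tetraspanin and metastasis suppressor, fell by 0.29 on the log2 scale (adjusted p = 0.00293, with 0.0658 as the highest value in limma on TPM). *Igfbp3*, which encodes a binding protein of insulin-like growth factors, rose from 43.3 ± 5.53 to 81.4 ± 4.36 CPM (SD, n = 3), or 0.91 on the log2 scale (adjusted p = 1.37e-04 in edgeR). *Sulf2*, a sulfatase gene of the cell surface, rose by 0.31 (adjusted p = 5.65e-04), *Gpx1*, a glutathione peroxidase gene, by 0.28 (adjusted p = 0.0078) and *Tnfaip8* by 0.36 (adjusted p = 0.0365). For these 6 genes, named because they passed the threshold, the groups did not overlap. Over the whole list they did not overlap for 21 of 58 genes (11 higher and 10 lower), against 25.1% of all genes tested. *Gpx1* had an adjusted p of 0.0539 without *Phf2* KO replicate 2. *Tnfaip8* had between 0.074 and 0.143 in every such fit except the one without control replicate 1.

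The next 10 targets of the list were named whatever their values, and they did not pass the threshold in the fit without a block. *Gadd45a*, a DNA damage gene, was at 103.1, 107.6 and 99.5 CPM in control and at 119.6, 97.7 and 100.8 CPM in *Phf2* KO cells (log2 fold change 0.04, adjusted p = 0.848). The log2 fold change was -0.09 for *Phlda3* (adjusted p = 0.301), 0.02 for *Sesn2* (0.949), 0.08 for *Btg2* (0.86), -0.13 for *Ppm1d* (0.575) and 0.16 for *Apaf1* (0.222), and their groups overlapped. The death receptor genes *Fas* and *Tnfrsf10b* had log2 fold changes of 0.16 (adjusted p = 0.484) and -0.11 (adjusted p = 0.549), also with overlap in CPM. In TPM, *Tnfrsf10b* overlapped too, but *Fas* did not. It was at 12.2, 16.9 and 13.8 TPM in control wells, against 20.5, 17.7 and 22.8 TPM in *Phf2* KO wells. *Sesn1* (0.17, adjusted p = 0.084) and *Aen*, which encodes a nuclease that enhances apoptosis (-0.44, adjusted p = 0.11), did not pass the threshold, although their groups did not overlap. With the replicate number as a block, *Aen* had an adjusted p of 8.62e-04 and was lower.

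Of 38 regulators of p53, 37 were tested, with a median log2 fold change of 0.005. By the quasi-likelihood test, 3 rose and 1 fell (10.8%, against 6.48% of all genes). *Mdm4*, a relative of *Mdm2* whose product holds p53 inactive, rose, opposite in sign to *Mdm2*. It was at 150.0, 138 and 146 CPM in control wells, against 159, 163 and 174 CPM in *Phf2* KO wells, for a log2 fold change of 0.20 (adjusted p = 0.0295). *Prkdc*, the catalytic subunit of a kinase of double-strand break repair, rose by 0.28 (adjusted p = 0.0202), and *Sirt1*, a deacetylase gene, by 0.31 (adjusted p = 0.0482). *Ppp1r13l*, which encodes iASPP, an inhibitor of p53, fell by 0.38 (adjusted p = 0.0194). All 4 calls were lost in some of the fits without 1 library. *Mdm4* had an adjusted p between 0.0564 and 0.161 in every fit without 1 library but the one without *Phf2* KO replicate 1, and the same held for *Sirt1*, with 0.0842 to 0.199. *Prkdc* had 0.0983, 0.083 and 0.115 without *Phf2* KO replicate 3 and control replicates 1 and 2, and *Ppp1r13l* had 0.0949, 0.0656 and 0.118 without *Phf2* KO replicates 2 and 3 and control replicate 2. The damage kinase gene *Atm* had a log2 fold change of -0.06 (adjusted p = 0.75) and the p53 relative *Trp63* one of -0.21 (adjusted p = 0.5). *Cdkn2a*, whose product ARF blocks MDM2, had 6 estimated counts in control replicate 2 and 0 in the other libraries, and *Trp73* had 8 in *Phf2* KO replicate 3 alone.

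The machinery through which these genes act in apoptosis was represented by 43 genes, of which 37 were tested, with a median log2 fold change of -0.03. By the same test, 4 rose and 1 fell (13.5%, against 6.48% of all genes). *Bmf*, which encodes another BH3-only protein, rose from 50.5 ± 3.60 to 70.9 ± 5.20 CPM (SD, n = 3), or by 0.49 on the log2 scale (edgeR, adjusted p = 5.88e-04), with an adjusted p of at most 0.00945 in the fits without 1 library but 0.0514 in limma on log2(TPM + 1). *Bid*, whose product carries the death receptor signal to mitochondria, fell by 0.25 (adjusted p = 0.0221). *Birc2*, an inhibitor of apoptosis, rose by 0.28 (adjusted p = 0.0232), and the caspase gene *Casp2* rose by 0.35 (adjusted p = 0.0458). The groups did not overlap for these 4 genes, which were named because they passed the threshold. Over the whole list they did not overlap for 14 of 37 genes, against 25.1% of all genes tested. *Bid* had 0.0784, 0.077, 0.0585 and 0.0976 without *Phf2* KO replicates 1 and 2 and control replicates 1 and 2. *Birc2* had 0.062, 0.0658, 0.0868 and 0.123 without *Phf2* KO replicates 1, 2 and 3 and control replicate 2. *Casp2* was above the threshold in every fit without 1 library but that without control replicate 3 (0.0807 to 0.174).

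The effector gene *Bak1*, a partner of *Bax*, was at 100.3, 97.4 and 98.3 CPM in control and at 94.1, 92.7 and 84.7 CPM in *Phf2* KO cells, with a log2 fold change of -0.12 (adjusted p = 0.175). Among the survival genes, *Bcl2* had a log2 fold change of 0.10 (adjusted p = 0.629), *Bcl2l1* one of -0.15 (adjusted p = 0.248) and *Mcl1* one of 0.12 (adjusted p = 0.194). *Cycs*, the gene of cytochrome c, and *Casp9*, its downstream caspase, had -0.08 (adjusted p = 0.527) and 0.01 (adjusted p = 0.973). None of these 6 genes passed the threshold, and apart from *Bak1* and *Mcl1* their groups overlapped.

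**Figure D5:**
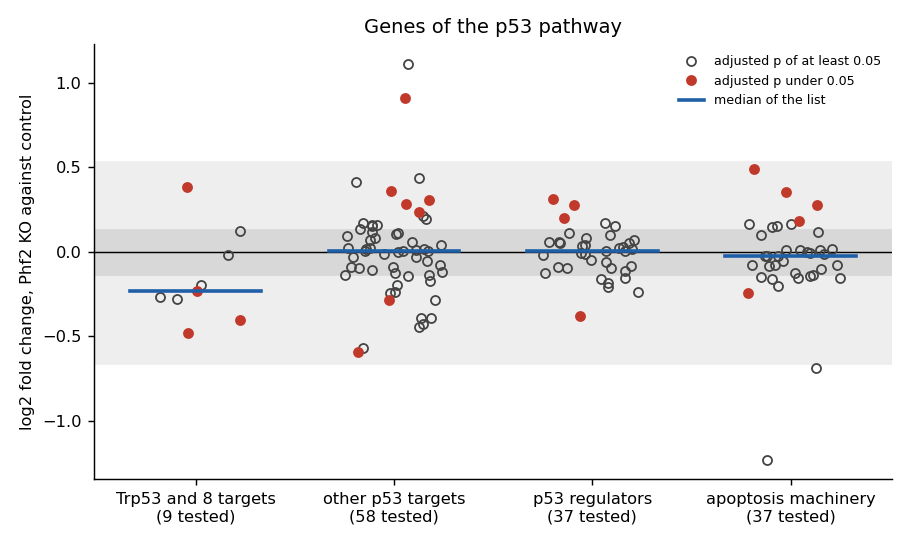
Log2 fold change of *Phf2* KO against control (y axis) of the tested genes of 4 groups: *Trp53* with its 8 targets, other p53 targets, p53 regulators and apoptosis machinery. Filled points had an adjusted p under 0.05, blue lines are medians, and the shaded bands hold the middle 50% and 90% of all 17310 genes; the medians are -0.23, 0.006, 0.005 and -0.03.

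Markers of myotubes were lower in *Phf2* KO cells beside these genes. The summed level of 12 myotube markers was between 8083 and 10130.0 TPM in the control libraries and between 6491 and 7311 TPM in the *Phf2* KO libraries (two-sided exact permutation test, p = 0.1, the smallest that 3 libraries against 3 allow). Several of these markers, among them *Myog*, *Myh3* and *Myh8*, had already been reported by the study as lower in the same libraries. Their sum and counts are therefore a description and no independent test. All 12 markers had a negative log2 fold change, and 8 fell with an adjusted p under 0.05 (66.7%, against 6.48% of all genes). Of these calls, *Myog* was lost without *Phf2* KO replicates 2 and 3 and control replicates 1 and 2 (adjusted p = 0.0768, 0.129, 0.0796 and 0.0909), and *Myh3* without *Phf2* KO replicates 1 and 3 and control replicate 1 (adjusted p = 0.143, 0.0791 and 0.128). The summed level of 14 markers of proliferating myoblasts was between 307 and 323 TPM in control and between 278 and 307 TPM in *Phf2* KO libraries (exact permutation test, p = 0.2), with the lowest control below the highest *Phf2* KO library, and of the 14 only *Rrm2*, a subunit of ribonucleotide reductase and the paralog of a p53 target, passed the threshold, at a log2 fold change of -0.31 (adjusted p = 0.0138, or 0.0725 without control replicate 2). Of the 7 fibroblast and adipocyte markers, *Cd36* and *Dpt* fell (log2 fold changes of -1.44 and -0.90, adjusted p = 7.73e-04 and 0.00737), *Pdgfra* had 0.14 (adjusted p = 0.408), and *Thy1* was at 0. The sum of these 7 ran from 23.2 to 31.3 TPM in control and from 21.5 to 26.8 TPM in *Phf2* KO libraries (exact permutation test, p = 0.3), and that of the 6 blood and endothelial markers from 2.88 to 3.45 and from 2.47 to 3.27 TPM (exact permutation test, p = 0.6). The part of this shift in the differences of the p53 targets was not tested, and in bulk RNA fewer cells of a type and less RNA per cell cannot be told apart.

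The genes most like *Pmaip1* and *Trp53inp1* were sought by the root mean square difference in log2(CPM + 0.5), centred on the control mean, over the 6 libraries and 13364 other genes. For *Pmaip1* they were *Ugt1a6b* (0.022), *1700008J07Rik* (0.048) and *Ppm1e* (0.053). For *Trp53inp1* they were *Usp29* (0.045), *Man1a* (0.057) and *Tnc* (0.059). None of them is on the lists above. *Ugt1a6b* and *1700008J07Rik* had control means of only 2.28 and 1.33 CPM, where adding 0.5 shrinks differences. Their fitted log2 fold changes were -0.59 and -0.67, against -0.48 for *Pmaip1*.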

How the data were processed

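Per the labels and the study's methods, polyadenylated RNA was sequenced with paired reads, which the authors aligned to mm10 with HISAT2 and quantified with StringTie; versions and annotation are not given in the sources used here. Estimated counts, deposited as whole numbers without scaling, fill the gene matrix. They are not reads: in genes with 1 transcript and at least 500 counts, a count stood for a median of 74.98 to 74.99 covered bases, so a read pair adds about 4 counts. Depth per library limits the precision accordingly, and limits from a count of 0 cover counting error only. TPM, a signal scaled by the authors to each library's total, came from the table of each library, of which the rows of reference genes were used. Their coverage column served only to work out the unit. Coordinates are those of the deposited tables, and exon overlaps those of GENCODE M21 (GRCm38).

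Counts were filtered by filterByExpr (minimum 10), scaled by TMM and tested with edgeR 4.0.16 in R 4.3.3 (quasi-likelihood, robust, prior count 0.125), with Benjamini-Hochberg adjustment over 17310 genes and a threshold of 0.05. The study names edgeR's exactTest, which was an alternative, beside DESeq2 1.42.0, other size factors, no filter, counts divided by 4, limma 3.58.1 on log2(TPM + 1) and log2(TPM + 0.1), the replicate number as a block and each library left out. The fit was tested on simulated data. Figures were drawn with Python 3.11.15. The genes and lists were chosen with earlier results of these data known. Named were the 9 genes, *Phf2*, *Cdkn1a*, the list members past the threshold (at most 10 of the other targets and 6 of another list), a fixed set of core pathway genes, the nearest genes by pattern and genes with overlapping exons. *Trp53-ps*, *Rprm* and marker genes were named after their values were seen. Some listed genes are counted in their lists but not reported here by name.

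Libraries with the same replicate number deviated together from their group means: over 10923 genes averaging 5 CPM or more, the deviations of replicates 1, 2 and 3 correlated at 0.235, 0.258 and 0.168, and unlike numbers at -0.002 or below. Genes are not independent replicates in these correlations. The study describes no pairing, so the block is an alternative.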

Additional observations from a re-analysis of the deposited data

How the results depend on the processing

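*Phf2* kept its direction and its call under all 15 alternatives, with log2 fold changes between -1.40 and -1.30. Over all genes, 1122 passed the threshold, with 1129 by exactTest, 1316 with the replicate block and 1527 by DESeq2, but limma called 127 on log2(TPM + 1) and 153 after adding 0.1 instead of 1, and fits without 1 library gave 468 (control replicate 2), 577 (*Phf2* KO replicate 2), 613 (*Phf2* KO replicate 3) and up to 1039 (control replicate 3). With limma on these TPM scales, in that order, 1 and 1 of the 9 genes of p53 and its targets passed in place of 4 (exactTest and DESeq2 called 6 each, and 3 passed with no filter), 3 and 3 of the other p53 targets in place of 7, 0 and 0 of the p53 regulators in place of 4, and 0 and 1 of the apoptosis machinery in place of 5; upper-quartile factors gave 3 for the last. Where limma called 0, 7 of 37 regulators (on either scale) and 7 of 37 genes of the apoptosis machinery had an unadjusted p under 0.05, and DESeq2 called 4 regulators and 5 genes of the machinery. The cause was not tested. With the replicate block, 7 of the 9 genes passed, and *Aen*, *Tnnc1* and *Acta1* were added to the calls; it changed no other call of a listed gene reported here. Without 1 library, 1 to 3 of the 9 genes, 5 to 7 other targets, 0 to 4 regulators (0 without *Phf2* KO replicate 3 and without control replicate 2, with 8 and 5 at an unadjusted edgeR p under 0.05) and 1 to 4 genes of the apoptosis machinery passed. Of 135 refitted fold changes of the 9 genes, 2 changed sign: *Trp53* was at 0.0051 without *Phf2* KO replicate 3, in a range of -0.044 to 0.0051 over fits without 1 library, and *Bbc3* at -0.0088 without control replicate 1, in a range of -0.0088 to 0.26. *Eda2r* kept its call under all 15 alternatives, *Trp53inp1* lost it in 7 and *Pmaip1* and *Bax* in 6 each, while *Mdm2* and *Ccng1* gained one in 3 each and *Zmat3* in 1.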
